A study of Homo sapiens with 8 samples.

Results

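The constitutive H3K9me3 intervals of PC9 cells are the stretches of chromatin called as enriched for this mark in parental cells that met an enriched interval again in both drug-tolerant states. PC9 is a human cell line derived from a lung adenocarcinoma and driven by mutant EGFR. The 3 H3K9me3 libraries came from DTP + TSA cells, which had 1 uM erlotinib for 8 days and then 50 nM trichostatin A (TSA) for 5 hours, from DTP cells, the drug-tolerant persisters that survived 1 uM erlotinib for 8 days, and from untreated parental cells. Erlotinib inhibits the EGFR kinase and TSA inhibits histone deacetylases, and the DTP + TSA cells carried the erlotinib treatment too. The series holds 8 samples with 1 library per group, and the 2 H3K4me3 and 3 input libraries were not analysed here.

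A parental interval counted as constitutive when it lay on an autosome other than chromosome 19 and shared 1 bp or more with an interval called in DTP + TSA and with one called in DTP. The rule kept 12230 of the 22262 parental intervals on these 21 autosomes, or 54.9% (95% interval 54.3 to 55.6), out of 23842 in the whole parental list and 124708 in the 3 lists together. Of the remaining parental intervals, 6687 met neither drug-treated list, 1866 met DTP alone and 1479 met DTP + TSA alone. A reciprocal overlap of 50% left 7005 members, and lists cut to equal numbers of their strongest intervals left 6759. All positions are on hg19. Presence in the 3 lists chose the members, so their number, length and strength are given as a description, with no test. Each state has a single library, so differences between states have no replicate check. Shares carry exact Clopper-Pearson 95% intervals and medians carry binomial order-statistic ones, both for counting error only, and how deeply each library was sequenced is unknown.

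H3K9me3 is written by histone methyltransferases such as SETDB1 and SUV39H1 and bound by HP1 proteins, which keep the marked chromatin compact and silent. It covers repeats next to centromeres, transposable elements such as LINE-1 and endogenous retroviruses, and clusters of C2H2 zinc finger genes. Many of these zinc finger genes encode KRAB-type repressors that bring SETDB1 to transposable elements through TRIM28. Full-length human LINE-1 elements are close to 6 kb long.

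The constitutive intervals were slightly longer and ranked higher by signal than the parental list as a whole. They covered 68.1 Mb, or 61.9% of the parental length on the 21 autosomes. Their median parental length was 4000 bp (4000 to 4200), against 3800 bp for all parental intervals and 3400 bp for those that met neither other list. It was 3600 bp for those that met DTP alone and 3800 bp for those that met DTP + TSA alone. The middle of the distribution ran from 2600 to 6400 bp between the quartiles, and the longest interval measured 149.2 kb. Of intervals over 16 kb, 409 of 482 or 84.9% (81.3 to 87.9) were constitutive, while the share was 47.5% (45.9 to 49.1) for those up to 2 kb. A longer interval has more room to meet a 1 bp overlap, so this slope is partly built into the rule.

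Seen from the other lists, the constitutive parts were a smaller fraction. Of the 48450 DTP + TSA intervals on the same autosomes, 12804 or 26.4% (26.0 to 26.8) overlapped both other lists, and of the 43733 DTP intervals 12651 or 28.9% (28.5 to 29.4) did. These intervals had a median length of 3400 bp in DTP + TSA and 3600 bp in DTP, against 2000 bp and 2200 bp for the other intervals of the same lists.

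**Figure D1:**
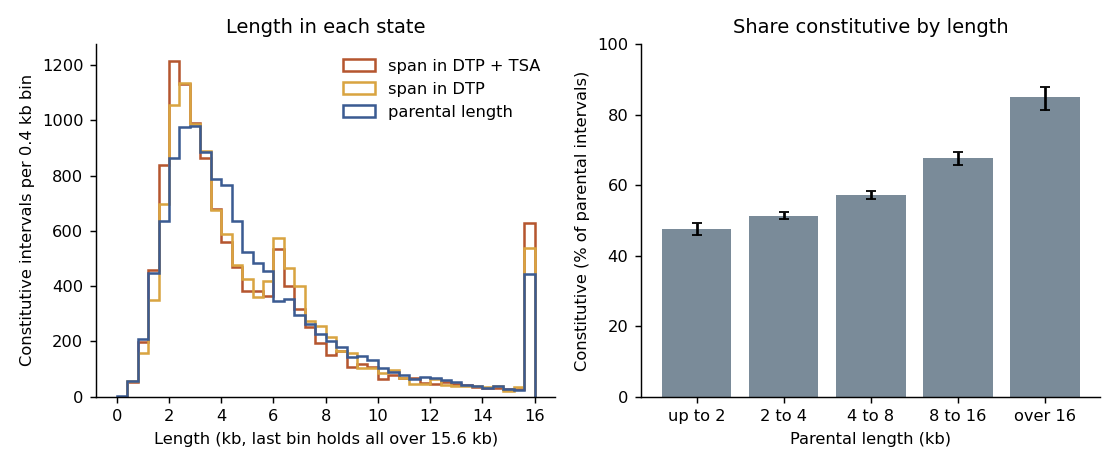
Left, number of constitutive intervals per 0.4 kb bin by length in kb, for the span in DTP + TSA, the span in DTP and the parental length; right, the share of parental intervals that were constitutive by parental length class, with exact 95% intervals. The DTP + TSA and DTP spans show a second rise near 6 kb that the parental lengths lack, and the share reaches 84.9% for intervals over 16 kb.

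A length close to 6 kb was more frequent among the constitutive intervals in both drug-treated states than in parental cells. The span of a member in a list is the distance between the outermost borders of the intervals that overlap it there. Spans of 5.8 to 6.2 kb numbered 747 in DTP + TSA and 791 in DTP, against 578 parental intervals of that length. These were 6.11% (5.69 to 6.55), 6.47% (6.04 to 6.92) and 4.73% (4.36 to 5.12) of the members, while intervals of this length made up 3.34% of all those called in DTP + TSA, 4.74% in DTP and 4.55% in parental cells. A span can take in several intervals, so the units differ. Counted as single intervals, 5.66% of those that overlapped both other lists had this length in DTP + TSA and 6.44% in DTP. For the other intervals, which were shorter, the shares were 2.51% and 4.05%.

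The class can also be set against a neighbouring length. The number at 5.8 to 6.2 kb was 1.29 times that at 4.8 to 5.2 kb in DTP + TSA and 1.29 times in DTP, while in parental cells it was 0.743 times. The ratio is given over members alone, so whether the whole lists share it was not tested. The members in this class in DTP came from all parental lengths. Of the 791, 500 or 63.2% had a parental length under 5.8 kb, 223 or 28.2% one over 6.2 kb, and 68 were in the class in parental cells too. Over all members, 69.3% had a parental length under 5.8 kb and 26.0% one over 6.2 kb.

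The same members often held this length in both treated lists. 274 were in the class in DTP + TSA and in DTP, which is 36.7% of the DTP + TSA class and 34.6% of the DTP class. For spans of 4.8 to 5.2 kb, 18.7% of the DTP class had such a span in DTP + TSA too. Both borders of the 274 lay within 200 bp of each other in DTP + TSA and DTP in 218 cases and on the same step in 82. Their median parental length was 4200 bp, and 38.3% fell in bands of dark Giemsa stain (classes gpos75 and gpos100), which are AT-rich and gene-poor, against 26.5% (25.7 to 27.3) of all constitutive intervals. The whole class was nearer to all members. Dark bands held 27.3% (24.1 to 30.7) of it in DTP + TSA, 29.0% (25.8 to 32.2) in DTP and 23.2% (19.8 to 26.8) in parental cells. The class was defined after lengths had been seen. The repeats under these intervals were not examined.

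Within each list the constitutive intervals ranked above the middle by mean signal, the authors' average signal within an interval. For each member the interval of greatest overlap was ranked, as a percentile of its own list on the 21 autosomes. The median percentile was 65.8 (64.8 to 66.7) in DTP + TSA, 72.2 (71.4 to 72.8) in DTP and 63.7 (63.0 to 64.5) in parental cells. Lists of different lengths have different ranks for the same signal, so these percentiles show where the members stand in each list and not a change between states.

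Members were more frequent in the top decile of each list, which holds 10.0% of its intervals by construction. In that decile lay 2871 members or 23.5% (22.7 to 24.2) in DTP + TSA, 2953 or 24.1% (23.4 to 24.9) in DTP and 1729 or 14.1% (13.5 to 14.8) in parental cells. The decile itself holds 4845 intervals in DTP + TSA, 4374 in DTP and 2227 in parental cells. The smaller parental decile limits the share there, and 77.6% of its intervals were constitutive, so the 3 shares do not compare enrichment between lists. Weak intervals were also present. In the lowest 25% of a list lay 1973 members in DTP + TSA, 1410 in DTP and 1700 in parental cells. 894 members, 7.31% (6.85 to 7.79), were in the top decile of all 3 lists, and 260, or 2.13% (1.88 to 2.40), were in the lowest 25% of all 3.

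The 894 strongest members were found more toward chromosome ends and light bands than the members as a whole. Within 5 Mb of an end lay 25.1% (22.2 to 28.0) of them, against 11.7% (11.1 to 12.2) of all members, and in the light Giemsa bands (gneg) 63.6% (60.4 to 66.8) against 51.3% (50.4 to 52.2). For the 260 weakest these shares were 7.31% and 44.6%. Across the 12230 members, the order by mean signal was closest between the treated lists, with a Spearman correlation of 0.76 between DTP + TSA and DTP, 0.53 between DTP + TSA and parental cells, and 0.47 between DTP and parental cells. These are descriptions across intervals that share loci and hence mappability and copy number.

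**Figure D2:**
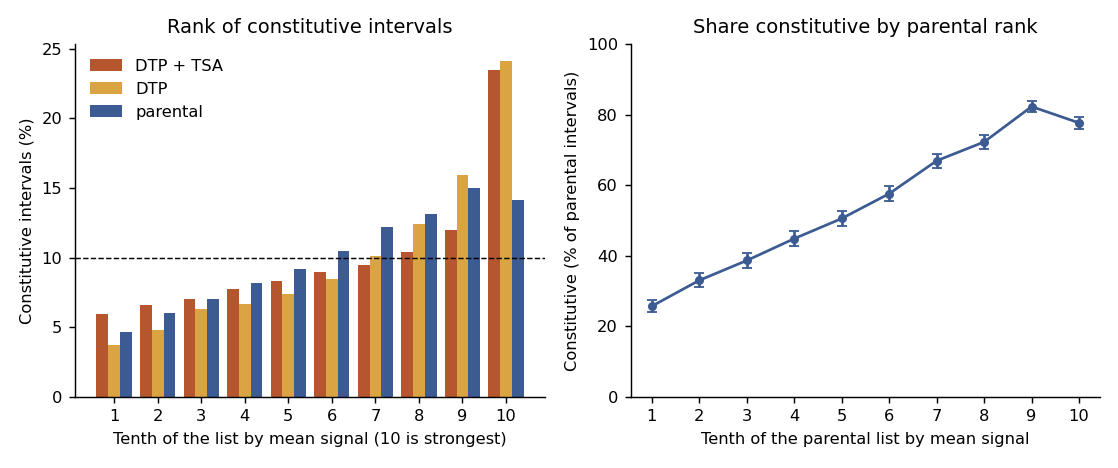
Left, percent of the constitutive intervals in each decile of the DTP + TSA, DTP and parental lists by mean signal, where the dashed line marks the 10.0% of a whole list; right, percent of parental intervals that were constitutive in each decile of the parental list, with exact 95% intervals. The share constitutive is 25.7% in the weakest decile and 82.3% in the ninth.

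The share of parental intervals that were constitutive followed its parental rank up to the ninth decile. It was 25.7% (23.9 to 27.6) in the weakest decile, 50.5% (48.4 to 52.6) in the fifth and 82.3% (80.6 to 83.8) in the ninth. In the strongest decile it was lower, at 77.6% (75.8 to 79.4). The 1729 constitutive intervals of that decile had a median length of 4000 bp, against 2600 bp for the 498 others, and 20.5% of them were up to 2 kb long against 33.1%. Within 5 Mb of a chromosome end lay 31.3% of the constitutive ones and 40.6% of the others.

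Few members sat at the limit of the rule. In 24 the lesser of the 2 overlaps was a single 200 bp step, the smallest the lists allow, and in 861 it was at most 1 kb. The median parental percentile was 30.7 for these 24, 49.5 for the 84 with a lesser overlap of 400 bp and 56.8 for the 861, against 63.7 for all members. Just outside the rule, 174 parental intervals overlapped one treated list and lay within 1 kb of an interval in the other, with a median percentile of 34.1.

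Most constitutive intervals kept the greater part of their parental extent. The median share of the parental length that was covered was 81.3% (80.8 to 81.8) in DTP + TSA and 83.3% (82.5 to 84.0) in DTP. The whole parental interval was covered for 3540 members or 28.9% in DTP + TSA and for 3662 or 29.9% in DTP, where the same holds for 27.9% and 27.4% of all parental intervals with an overlap in those lists. Under 50% of the parental length was covered for 2057 and 1743 members.

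A core present in all 3 lists ran through nearly all of them. It amounted to 42.9 Mb, or 63.0% of the constitutive length, with a median of 73.7% (72.7 to 75) per member. For 2501 members it was the whole parental interval, and these were short, with a median parental length of 2400 bp, and strong, with median percentiles of 84.1 in DTP + TSA, 83.1 in DTP and 74.5 in parental cells. Only 52 members had no position in common between all 3 lists.

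The summit is the point of highest signal within an interval. The median distance between summits was 255 bp in DTP + TSA and 256 bp in DTP. It was within 200 bp for 45.3% (44.4 to 46.2) of members in DTP + TSA and 44.7% (43.8 to 45.6) in DTP, and within 1 kb for 74.5% (73.7 to 75.3) and 75.3% (74.6 to 76.1), so that the other summits were further off. The parental summit lay inside the main overlapping interval for 92.5% (92 to 93) of members in DTP + TSA and 93.6% (93.1 to 94.0) in DTP.

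Under the 1 bp rule, more borders lay further in than further out in both treated lists. The median shift of the start and of the end was 0 bp in DTP + TSA and in DTP, with quartiles at 800 bp inward and 600 bp outward in each case. The start lay further out for 39.0%, on the same step for 12.8% and further in for 48.3% of members in DTP + TSA. In DTP these shares were 39.8%, 12.9% and 47.3%. Ends behaved alike, with 40.4% further out and 47.4% further in for DTP + TSA and 41.2% and 45.9% for DTP. About equally many borders lay within 1 kb of the parental position, from 63.1% to 63.6% over starts and ends of both lists. The balance depended on the overlap rule. Spans were longer than in parental cells for 43.9% of members in DTP + TSA and 45.6% in DTP. With 50% of the parental interval covered these shares were 53.1% and 54.8%, and with a reciprocal overlap of 50% they were 41.4% and 42.9%.

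**Figure D3:**
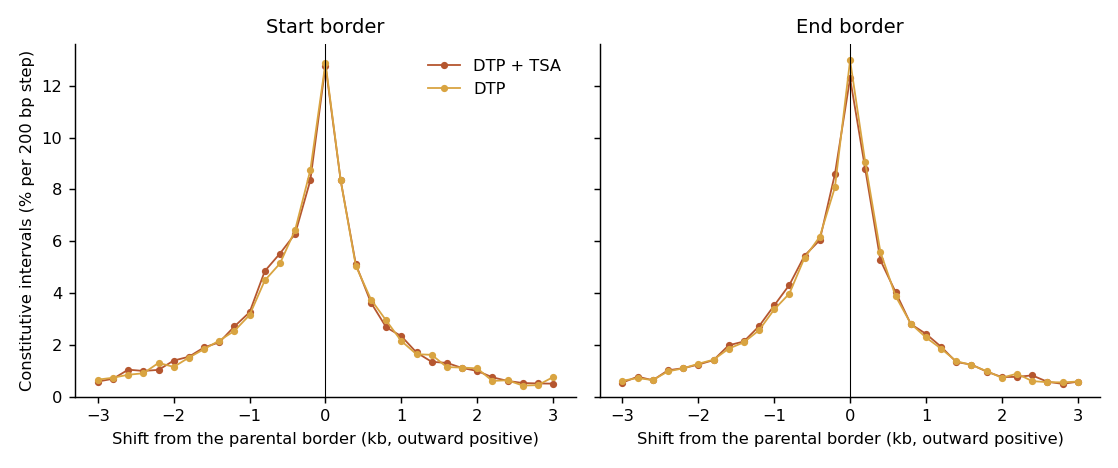
Percent of constitutive intervals by the shift of their start (left) and end (right) from the parental border in kb, in steps of 200 bp out to 3 kb each way, for DTP + TSA and DTP; positive values lie outside the parental interval. Each curve peaks at 0, and more borders lie further in than further out.

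Taking both borders of a member, 2293 reached further out on both sides in DTP + TSA and 2291 in DTP, while 3267 and 3026 were further in on both sides. 3852 in DTP + TSA and 4010 in DTP lay further out at one side and further in at the other. Both borders stood on the parental step for 248 and 261 members. Only 61 members had the same start and end in all 3 lists. These were short and strong, with a median length of 1800 bp and median percentiles of 97.9 in DTP + TSA, 97.4 in DTP and 95.3 in parental cells.

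Counting only changes of at least 1.5 times in span, wider and narrower members were close in number. In DTP + TSA 2675 or 21.9% (21.1 to 22.6) were wider and 3071 or 25.1% (24.3 to 25.9) narrower than in parental cells, against 21.4% and 27.4% of all parental intervals with an overlap in DTP + TSA. In DTP 2867 or 23.4% (22.7 to 24.2) were wider and 2772 or 22.7% (21.9 to 23.4) narrower, against 21.9% and 26.3% of all those with an overlap in DTP. The members make up most of these backgrounds, so their shares are near them. Of the parental intervals that met DTP + TSA alone 17.2% were wider and 46.0% narrower there, and of those that met DTP alone 11.8% and 50.2% were. 1956 members were wider in both treated lists and 1937 narrower in both, and 128 went opposite ways. Both comparisons share the parental list. The wider ones had a median parental length of 2400 bp and the narrower ones 6000 bp, a contrast partly built in because parental length is the divisor.

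Long members were often met by several intervals. Of the 409 over 16 kb, 245 or 59.9% (55.0 to 64.7) were met by at least 2 intervals in DTP + TSA and 241 or 58.9% (54.0 to 63.7) in DTP, while over all lengths 92.6% and 93.4% of members were met by 1. The parental length of these 409 was covered to a median of 62.2% in DTP + TSA and 64.2% in DTP. Members up to 2 kb stood at the other end, with a median span of 1.5 times the parental length in DTP + TSA and 1.6 times in DTP. Parental length both chose these groups and served as the divisor, so the contrast between long and short members is partly built in. Some members were joined to others: 578 shared their main interval with another member in DTP + TSA and 614 did in DTP, up to 6 and 9 in 1 interval.

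The 5 longest members lay in bands that hold zinc finger genes, 12q24.33, 7p11.2 and 3p12.3. Such genes lie in 134 of the 792 bands, which hold 2847 of the 12230 members. Genes are named through their band, since gene positions on hg19 were not used here. The longest, chr12:133464401-133613600 (149.2 kb), and the second, chr12:133614401-133751200 (136.8 kb), were parted by a gap of 800 bp and form a block of 286.8 kb. The band 12q24.33 holds the zinc finger genes ZNF10, ZNF26, ZNF84, ZNF140, ZNF268, ZNF605 and ZNF891. The outer borders of the first moved by 200 bp and 7400 bp inward in DTP + TSA and by 800 bp and 1000 bp inward in DTP, but inside them it lay in 9 pieces in DTP + TSA and 16 in DTP, which covered 83.9% and 81.2% of it. The second lay in 15 and 19 pieces, which covered 78.8% and 77.9%.

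In 7p11.2, the band of ZNF479, ZNF713 and ZNF716, a pair of members at chr7:57148801-57283200 (134.4 kb) and chr7:57284001-57407200 (123.2 kb) was likewise parted by 800 bp. The first was covered to 71.9% in DTP + TSA, in 9 pieces, and to 66.8% in DTP, in 11. The second was covered to 69.6% in DTP + TSA, in 7 pieces, and to 55.5% in DTP, in 8. The fifth longest lay in 3p12.3, the band of ZNF717, at chr3:75728001-75839200 (111.2 kb). It was covered to 71.4% in DTP + TSA and 78.2% in DTP, and consisted of 3 pieces in each treated list. In DTP + TSA its start lay 27200 bp further in, while in DTP it lay 200 bp further out.

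The largest losses of span were on chromosomes 7 and 3. At chr7:50886001-50935800 in 7p12.1 a parental interval of 49.8 kb had a span of 2.8 kb in DTP + TSA and 2.6 kb in DTP. At chr3:189428001-189488600 in 3q28 the span was 19.6 kb in DTP + TSA and 21.2 kb in DTP, against 60.6 kb in parental cells. At chr7:41062401-41102200 in 7p14.1 it was 2.4 kb in DTP + TSA and 8.0 kb in DTP, against 39.8 kb. At chr7:63725601-63768800 in 7q11.21 it was 7.0 kb and 6.8 kb against 43.2 kb, with the start in place or 200 bp off and the end 36200 bp further in. These members count as constitutive by the 1 bp rule although at most 24.1% of their parental length was covered in either treated list.

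The largest growth was different in the treated lists. In DTP it lay beside the centromere of chromosome 5 (5p11), where an interval of 153.0 kb, chr5:46118401-46271400, took in 3 of the members with the largest growth, of 27.4, 6.6 and 9.0 kb in parental cells. In DTP + TSA the spans of these members were 35.6, 35.6 and 11.8 kb. In DTP + TSA the largest growth lay in 12q24.33, where an interval of 114.2 kb, chr12:132832001-132946200, took in members of 10.6, 5.2 and 1.4 kb. In DTP their spans were 41.6, 41.6 and 20 kb.

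The highest mean signal in all 3 lists belonged to members in or beside centromeres. At chr1:121474001-121485600 in 1p11.2 the member was the strongest of the parental list and of the DTP + TSA list and at percentile 99.998 in DTP. It was followed by chr18:18511001-18523600 in 18q11.1, chr10:42355001-42402400 in 10q11.21, chr2:92314801-92326200 in 2p11.1 and chr4:49092601-49181800 in 4p11. Their borders were steady, with the largest shift being 9200 bp outward at the end of the 10q11.21 member in both treated lists and the other shifts at most 2400 bp. Satellite repeats are collapsed in hg19, and the part of read mapping in these signals was not tested.

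The span of constitutive intervals in DTP + TSA relative to DTP varied with their position. Over all members the span in DTP + TSA was at least 1.5 times that in DTP for 1462 or 12.0% (11.4 to 12.5) and at most 1/1.5 of it for 2006 or 16.4% (15.8 to 17.1). Of all DTP intervals with an overlap in DTP + TSA, 15.3% and 14.8% did so. That count takes single DTP intervals against their own length, so its unit differs from the span over a member. It covers all positions together and is not given by distance, Giemsa class or band. Whether the differences by position below are particular to members was therefore not tested. Within 2 Mb of a chromosome end 236 of 740 members or 31.9% (28.5 to 35.4) were wider in DTP + TSA and 52 or 7.03% (5.29 to 9.11) narrower. From 2 to 5 Mb the shares were 29.8% (26.4 to 33.4) and 8.18% (6.23 to 10.5). Over the whole 5 Mb 30.9% were wider, which was 15.7% of members with a reciprocal overlap of 50% and 47.3% after intervals within 5 kb were joined. Members that shared a treated interval were each counted, so 1 broad interval can make several members wider or narrower. Over all members, 578 shared their main interval in DTP + TSA and 614 in DTP. The exact intervals take members as independent, so they are too narrow here and for the distance and Giemsa classes below. How many of the sharing members lay near chromosome ends was not tested.

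Away from the ends the balance turned. From 5 to 10 Mb wider and narrower members were level, at 14.5% (12.1 to 17.2) and 14.7% (12.2 to 17.4). Beyond 20 Mb 727 of 8607 or 8.45% (7.87 to 9.05) were wider and 1573 or 18.3% (17.5 to 19.1) narrower. With a reciprocal overlap of 50% the wider ones were 4.96%. The median share of the parental length that was covered followed the same course, at 98.1% in DTP + TSA and 89.0% in DTP within 2 Mb of an end, and at 80% and 83.3% beyond 20 Mb. Whole-list coverage moved along with it, at 24.1% in DTP + TSA and 13.2% in DTP within 2 Mb of an end and at 4.55% and 4.99% beyond 20 Mb, and the part of this overall density in the wider spans was not tested.

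**Figure D4:**
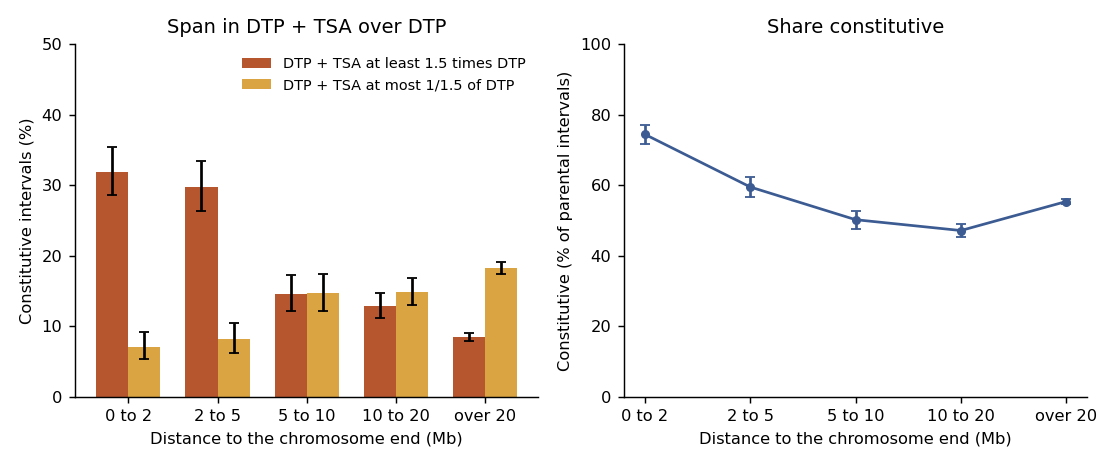
By distance to the chromosome end in Mb: left, percent of constitutive intervals whose DTP + TSA span was at least 1.5 times, or at most 1/1.5 of, the DTP span; right, percent of parental intervals that were constitutive. Bars and points carry exact 95% intervals; wider spans make up 31.9% within 2 Mb of an end and 8.45% beyond 20 Mb.

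Giemsa classes differed too, though not in one order with staining. In light bands 14.8% (14.0 to 15.8) were wider in DTP + TSA than in DTP and 14.8% (13.9 to 15.7) narrower. In the palest stained class (gpos25) 16.3% (14.0 to 18.8) were wider and 15.2% (12.9 to 17.7) narrower, and in gpos50 bands 8.58% (7.23 to 10.1) and 17.3% (15.5 to 19.3). In the darkest bands (gpos100) 6.95% (5.8 to 8.24) were wider and 16.8% (15.0 to 18.6) narrower, and in gpos75 bands 7.67% (6.38 to 9.14) and 20.1% (18.1 to 22.2). The centromeric bands (acen) stood furthest toward narrowing, with 8 of 231 wider and 73, or 31.6% (25.7 to 38), narrower. In DTP the 231 centromeric members had a median span of 1.59 times the parental length, and in DTP + TSA 1.25 times.

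Among the named bands the ratio varied more widely. In 11p11.12, beside the centromere of chromosome 11, the median span of 44 members in DTP + TSA was 0.47 times that in DTP, and 1 of them was wider. In 12q24.33, at the end of the long arm, it was 1.31 times for 50 members and 21 were wider. In 2q37.3, also terminal, it was 1.20 times for 70 members with 28 wider, in 7q36.3 1.20 times for 64 with 25 wider, and in 6q27 1.20 times for 71 with 23 wider. In 8q24.3, the last band of the long arm, it was 1.26 times for 58 members with 23 wider. The ratio was nearer 1 in other terminal bands, at 1.05 times in 7p22.3 for 37 members with 13 wider and 1.04 times in 16p13.3 for 34 with 9 wider. Some terminal bands did not lean toward wider spans. In 18p11.32 the ratio was 0.95 times for 21 members, with 0 wider and 3 narrower. In 15q26.3 it was 1.0 times for 22, with 1 wider and 4 narrower. The bands given here do not cover all chromosome ends.

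Constitutive intervals were spread over all 21 autosomes at 4.33 per Mb. 752 of the 792 bands held at least 1, where 756 held a parental interval of any kind, and 179 bands held 50% of the members. Of 2837 windows of 1 Mb, 2455 or 86.5% held at least 1, with a median of 4 and at most 48. No such count over all parental intervals is given for the windows. Of the bands of at least 1 Mb, 725 held a parental interval. 32 bands of that size held no member, and 30 of these are centromeric, variable or stalk bands.

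Chromosome 7 was the densest and carried the most constitutive length. It held 1040 members, 6.54 per Mb, with a median length of 5200 bp, and they covered 5.47% of it against 2.41% over all 21 autosomes. Chromosomes 5 and 12 followed with 5.41 and 5.39 per Mb, and chromosomes 15, 21 and 22 had the fewest with 2.69, 2.72 and 3.20. These densities divide by the whole chromosome length, which takes in unassembled stretches and the short arms of acrocentric chromosomes such as 15, 21 and 22. The part of these stretches in the low densities was not tested. The share of parental intervals that were constitutive varied less, from 48.2% (44.7 to 51.8) on chromosome 13 and 48.5% (44.7 to 52.5) on chromosome 18 to 60.6% (56.8 to 64.3) on chromosome 14 and 63.1% (56.9 to 69.0) on chromosome 22. Chromosome 22 had 260 parental intervals, of which a large share was constitutive.

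**Figure D5:**
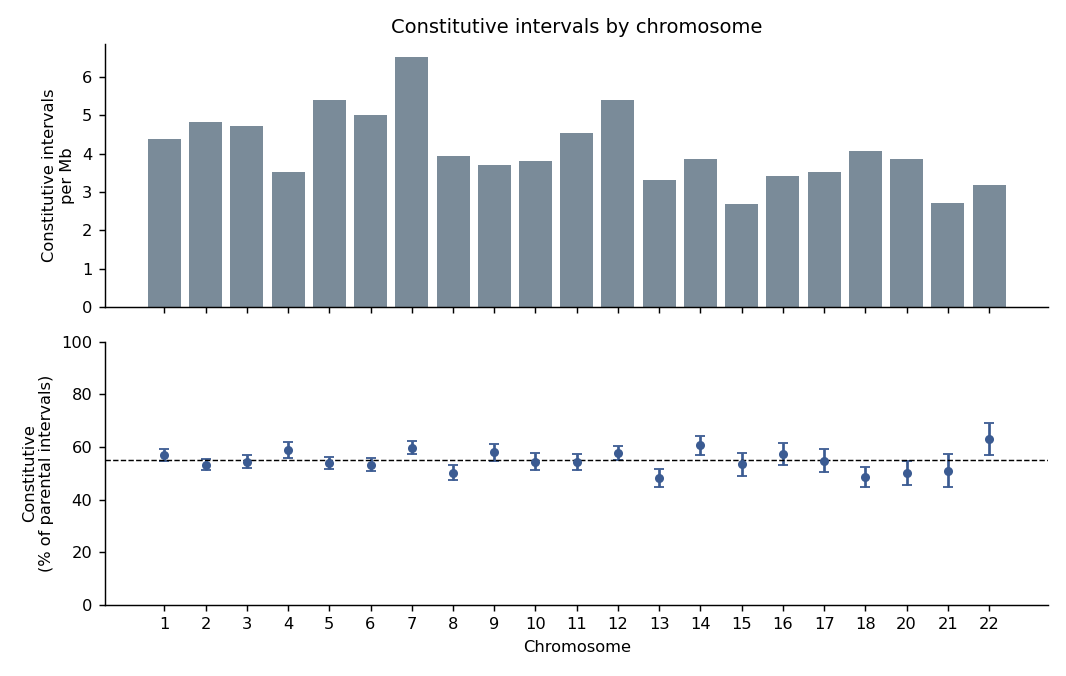
Top, constitutive intervals per Mb on each of the 21 autosomes; bottom, percent of the parental intervals of each chromosome that were constitutive, with exact 95% intervals and a dashed line at the 54.9% of all 21. Density over the whole chromosome length runs from 2.69 per Mb on chromosome 15 to 6.54 on chromosome 7, while the share stays between 48.2% and 63.1%.

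Light bands held 6270 members or 51.3% (50.4 to 52.2), where they hold 49.1% of all parental intervals. The share of parental intervals that were constitutive was 57.4% (56.5 to 58.3) in light bands, 50.7% (49.1 to 52.4) in gpos100 bands and 73.3% (68.1 to 78.1) in centromeric bands. Members were longer in light bands, with a median of 4400 bp, than in gpos100 bands, with 3200 bp.

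Toward chromosome ends both the density of members and the share of parental intervals that were constitutive were higher. Within 2 Mb of an end there were 10.0 members per Mb, and 74.4% (71.5 to 77.1) of parental intervals were constitutive. The share was 59.5% (56.6 to 62.3) from 2 to 5 Mb, 47.1% (45.3 to 48.9) from 10 to 20 Mb and 55.4% (54.6 to 56.1) beyond 20 Mb. Within 2 Mb of an end, the share with a reciprocal overlap of 50% was 39.6%, where it was 31.5% over all 21 autosomes. Parental intervals within 2 Mb of an end were also longer and stronger, with a median of 4400 bp and percentile 85.7 against 3600 bp and 47.6 beyond 20 Mb. Their part in the share, and that of the denser coverage of the treated lists there, was not tested.

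By band, the members covered most of 7p11.2 and 7q11.21, at 34.1% and 30.7% of the band length, followed by 11p11.12 with 17.6%, 7q36.3 with 15.3% and 12q24.33 with 14.0%, where the median band of at least 1 Mb had 1.80%. 7q11.21, the band of genes such as ZNF107, ZNF117, ZNF138, ZNF273, ZNF680 and ZNF92, also held the most members, with 115 of its 181 parental intervals. It was followed by 5q11.2 with 72 of 163, 6q27 with 71 of 101, 2q37.3 with 70 of 111 and 12q12 with 65 of 94. Of the bands with at least 20 parental intervals, the median share constitutive was 54.5%, with quartiles at 45.0% and 64.4%.

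The highest shares were 22 of 23 intervals in 1p11.2, 20 of 22 in 1p12, 20 of 23 in 3q13.33, 37 of 43 in 7p22.3 and 22 of 26 in 3q22.3. The lowest were 7 of 40 in 13q13.2, 6 of 32 in 11q24.1, 4 of 20 in 12q24.21, 11 of 55 in 3p14.2 and 7 of 31 in 18q21.33. With so few intervals per band the exact intervals are wide, from 78.1% to 99.9% in 1p11.2 and from 7.34% to 32.8% in 13q13.2.

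The bands with the most zinc finger genes by symbol had a higher share of constitutive intervals than other bands. Genes were taken by symbol (ZNF, ZFP, ZSCAN, ZKSCAN or ZIM), and whether each is of the C2H2 type was not checked. Readthrough entries were counted too, such as ZNF660-ZNF197 among the 10 of 3p21.31. The 7 bands with at least 10 such genes were 6p22.1, 16p11.2, 16p13.3, 7q11.21, 7q36.1, 3p21.31 and 8q24.3. There, 351 of 506 parental intervals or 69.4% (65.1 to 73.4) were constitutive, and members covered 9.27% of the bands with a median length of 6000 bp. The share was 59.4% (57.9 to 60.9) in the 127 bands with 1 to 9 zinc finger genes and 53.5% (52.7 to 54.2) in the 622 others. Of the 7, 16p11.2 had the highest share, with 56 of 70, and 3p21.31 the lowest, with 31 of 49. 7q11.21 alone held 115 of the 351 members. Without it the other 6 bands had 236 of 325 constitutive, or 72.6% (67.4 to 77.4), and members covered 6.05% of them.

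As lists, the larger gene families were not above the housekeeping control. The share constitutive was 60.5% (59.1 to 61.9) in the 134 bands of all 291 zinc finger genes on these autosomes and 61.7% (59.1 to 64.3) in the 37 bands of 371 olfactory receptor genes, a family best known from the nose. It was 63.4% (55.2 to 71.0) in the 4 bands of the HOX genes, which pattern the body axis, 60.4% (56.0 to 64.8) in the bands of the histone genes and 57.0% (52.1 to 61.9) in those of imprinted genes. The bands of 17 housekeeping genes, the control, stood at 64.0% (60.4 to 67.5). The 134 zinc finger bands held 5.14 members per Mb against 6.24 in the control, and members covered 3.50% of the zinc finger bands against 4.92% of the control. The clustered protocadherin genes, whose neuronal adhesion proteins are chosen gene by gene, lie in 5q31.3 alone, with 58 of 79 intervals constitutive or 73.4% (62.3 to 82.7). Its members had median percentiles of 97.6 in DTP + TSA, 96.9 in DTP and 85.7 in parental cells. Lists can share bands, and a band describes the surroundings of a gene and not the gene.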

How the data were processed

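H3K9me3 ChIP-seq libraries of PC9 cells were sequenced by the authors, with 1 library for each of DTP + TSA, DTP and parental cells. Per the submitters' processing notes, the tools included BWA and SICER and the builds hg19 and dm3; neither their versions nor their roles are stated. Which input was used, at which threshold, and with what scaling is not given in the sources used here. Each deposited list gives start, end, summit position, a summit and a mean signal, and a number of bins per interval, per the file headers. Each list belongs to 1 sample. The signal is the authors' own and served only to rank and filter intervals within a list. A deeper library can give more and longer intervals, which bears on every count here; depth is unknown.

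Every border fell on a 200 bp grid and no gap within a list was below 800 bp. Overlaps, spans and ranks were computed with Python 3.11.15, numpy 2.4.6, pandas 2.3.3 and scipy 1.17.1. Bands came from the hg19 table of circlize 0.4.16 under R 4.3.3, by interval midpoint. Genes of a GRCh38.p14 RefSeq table were placed in GRCh38 bands, and the hg19 band of the same name was used; all 862 names matched. No sequence is shown, since no hg19 genome was used here. The proximal ends of the acrocentric chromosomes did not count as ends. Of 6 checks on simulated or directly enumerated lists, 6 returned the known answer.

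The members and lists were chosen with earlier results of these data known. Named intervals are the 5 longest, the 5 with the highest mean of 3 percentiles, the 3 in most pieces, and the 3 with the largest growth and loss of span in each treated list. Named bands are the 5 with most members, with the largest covered share and with the highest and lowest share constitutive, plus those with at least 10 zinc finger genes; 5q31.3 is that of the protocadherin list. Other bands were named after their values were seen. Alternatives changed the overlap rule, joining, strength, length, chromosomes, bands and the value ranked.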

Additional observations from a re-analysis of the deposited data

How the results depend on the processing

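Of 93 values recomputed under an alternative, 37 stayed within their 95% interval, or within 1.5 times for a count, and 56 moved. Values are given in a fixed order: the share of parental intervals that were constitutive, their median parental length, the median covered share in DTP + TSA and in DTP, the share with a span longer than in parental cells in DTP + TSA and in DTP, the share in light bands, the share with a DTP + TSA span of at least 1.5 times the DTP span within 5 Mb of an end and beyond 20 Mb, and the share of parental intervals within 2 Mb of an end that were constitutive. As reported, these are 54.9%, 4000 bp, 81.3% and 83.3%, 43.9% and 45.6%, 51.3%, 30.9% and 8.45%, and 74.4%.

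Asking for an overlap of 50% of the parental interval gave 43.2%, 3600 bp, covered shares of 88.9% and 90.5%, longer spans in 53.1% and 54.8%, wider spans in 6.07% beyond 20 Mb, and 65.2% within 2 Mb. Longer spans thus passed 50% of members under that rule, which they did not as reported. A reciprocal overlap of 50% left 7005 members and gave 31.5%, 3800 bp, covered shares of 86.2% and 87.7%, longer spans in 41.4% and 42.9%, wider spans in 15.7% and 4.96%, and 39.6% within 2 Mb. Joining intervals within 5 kb gave 58.4%, 4400 bp, covered shares of 84.4% and 85.0%, longer spans in 49.5% and 49.3%, light bands for 50.3%, wider spans in 47.3% and 11.2%, and 78.0% within 2 Mb.

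Equal numbers of the strongest intervals left 6759 members and gave 30.4%, covered shares of 85.7% and 87.0%, longer spans in 45.7% in DTP + TSA, light bands for 54.4%, wider spans in 7.36% beyond 20 Mb, and 54.7% within 2 Mb. The upper 50% of each list left 5524 members and gave 49.6%, covered shares of 88.0% and 88.7%, longer spans in 48.0% and 47.3%, light bands for 55.8%, wider spans in 34.0% within 5 Mb, and 66.1% within 2 Mb. Removing intervals under 2 kb gave 47.9%, 4600 bp, a covered share of 82.4% in DTP + TSA, light bands for 53.5% and wider spans in 6.67% beyond 20 Mb.

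Taking all chromosomes gave 55.8% constitutive and 50.1% in light bands, and leaving out centromeric, variable and stalk bands gave 52.4% in light bands. Ranking by summit value gave median percentiles of 70.8 in DTP + TSA, 75.7 in DTP and 65.5 in parental cells. Stricter overlap and shorter lists admit fewer members by construction; for the other values the cause was not tested. The alternatives for the 2, 5 and 20 Mb distances were chosen after seeing the data, as were those distance classes. No paired analysis was possible because each state has 1 library. Depth is unknown, so counts between lists may reflect it.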
